A study of Rattus norvegicus with 5 samples.

Results

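The comparison set left ventricular wall of an infarcted rat heart under the combined treatment (S-DTMS) against wall of a heart without infarction (Normal), to find what still differed from uninjured tissue. It used 2 of the 5 libraries of the series, with 1 library per group. Of 20646 genes listed, 13270 had an FPKM of at least 1 in S-DTMS or in Normal, and these genes were compared. FPKM counts the sequenced fragments of a gene per kilobase of its length, relative to the fragment total of the library, so it is a level relative to all other RNA of that library.

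The rats were male SD rats aged 7 to 8 weeks. The Normal heart carried no infarct and no treatment. In the other groups the left anterior descending coronary artery had been tied. MI was left without treatment, and SNAP received S-nitroso-N-acetylpenicillamine, a nitric oxide donor, injected into the infarcted area. DTMS had the polypyrrole and polyvinyl alcohol hydrogel suture sewn over the infarct, and S-DTMS (spelled S-DTNS in the label of its sample) had the same suture with SNAP solution pumped through its channel. The sample labels give 1 month as the time of sampling, whereas the study's methods place it a week after therapy. Neither source says that the Normal hearts had a sham operation, so the surgery and the infarct cannot be told apart in this comparison.

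After a coronary artery is closed, heart muscle of the supplied area dies, leukocytes clear the debris, and fibroblasts lay down a collagen scar. The surviving muscle returns in part to a fetal pattern of gene expression and lowers its use of fatty acids. Nitric oxide relaxes vessels through soluble guanylate cyclase and cyclic GMP, and it dampens the activation of platelets and leukocytes. The table lists genes by rat Ensembl identifiers, and 0 of them could be paired with a gene name through the reference used here. Pathways, cell type markers and the identity of the tissue were therefore not analysed, and genes are described by level, length and behaviour over the 5 libraries.

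The 2 libraries were of nearly equal depth, with 17119257 fragments in Normal and 17037939 in S-DTMS, as worked out from the steps of the FPKM values. The other 3 libraries held between 16731024 and 17379225 fragments. The precision below covers the counting of fragments only, because nothing in 1 library per group measures the variation between rats. In bulk tissue, fewer cells of a type and less RNA per cell cannot be told apart. No test of the difference between the groups was possible, and no p-value was computed.

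S-DTMS differed from Normal by a log2 change of at least 1, taken on log2(FPKM + 1), at 1448 of 13270 genes (10.9%). Of these genes, 638 (4.81%) were higher in S-DTMS and 810 (6.10%) were lower. Because of the added 1, weakly expressed genes show less than their full change. The middle of the distribution barely moved, with a median change of 0.05, and 25% of the genes lay below -0.31 and 25% above 0.34. The tails were longer on the lower side. At a log2 change of at least 2, 78 genes were higher and 131 lower, and at least 3 was reached by 16 higher and 38 lower genes. The largest rise was 5.62 and the largest fall was -8.00.

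The limit cut through a continuous distribution. Between 0.9 and 1 lay 150 higher and 183 lower genes, and between 1 and 1.1 lay 126 higher and 147 lower genes. The counts therefore describe the size of the tails and not a natural class of genes.

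The excess of falls over rises depended on the scale in part. Scaling by the median of ratios divides each library by its median ratio to the geometric mean of the 5 libraries, which takes away the weight of a few abundant genes. On that scale 1357 genes (10.2%) differed, with 551 higher (4.15%) and 806 lower (6.07%). In all, 551 genes were higher and 774 lower on both scales. When the median over all genes was subtracted from each change, 583 genes rose and 886 fell past the limit. Leaving the 10 most abundant genes out of the library totals gave 557 rises and 874 falls. On these scales, as after median-of-ratios scaling, falls outnumbered rises by more than as deposited. With each library rescaled to TPM, which brings all libraries to the same sum, 859 genes were higher and 875 lower. Of the scales tried, TPM alone left little of the excess. With median-of-ratios scaling, the median change went from 0.05 to 0.00 for S-DTMS against Normal, but from -0.14 to -0.01 for MI against Normal.

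**Figure D1:**
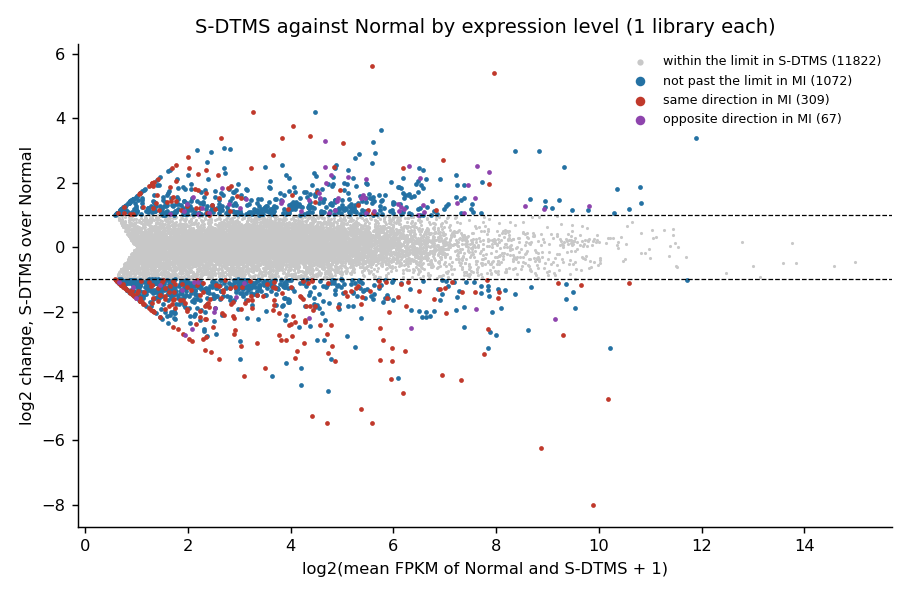
Log2 change of S-DTMS over Normal (vertical axis) against log2 of the mean FPKM of both libraries plus 1 (horizontal axis), with 1 point per gene for 13270 genes. Dashed lines mark a log2 change of 1, and colours give the behaviour of the 1448 genes past it in MI against Normal. The straight edges at low levels are genes with a value near 0 in 1 of the libraries.

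The genes differing from Normal under S-DTMS were then separated by whether they also differed in the untreated infarct. Over the same 13270 genes, MI differed from Normal at 872 genes (6.57%), with 219 higher (1.65%) and 653 lower (4.92%). Of the 1448 genes, 309 passed the limit in MI in the same direction, 67 passed it in the opposite direction, and 1072 did not pass it in MI. Both comparisons use the same Normal library, so a chance value of that library moves both in 1 direction, and the split is a description. After median-of-ratios scaling, MI differed from Normal at 765 genes (5.76%), 274 higher (2.06%) and 491 lower (3.7%). The split was then 268, 57 and 1032 genes, and 1264 genes fell in the same class on both scales.

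The split was uneven between directions. So were the changes in MI over all 13270 genes, of which 4.92% were lower and 1.65% higher. The shares below do not by themselves show that falls were shared with MI more than rises. Of the 810 genes lower in S-DTMS, 238 (29.4%) were also lower in MI, 17 were higher in MI and 555 (68.5%) did not pass the limit in MI. Of the 638 genes higher in S-DTMS, 71 (11.1%) were also higher in MI, 50 were lower in MI and 517 (81.0%) did not pass it. Thus most of what differed from uninjured heart under S-DTMS was not past the limit in the untreated infarct. The border in MI matters to this statement. With a limit of 0.5 in MI, 539 genes moved in the same direction, 215 in the opposite direction, and 694 were left within the limit.

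**Figure D2:**
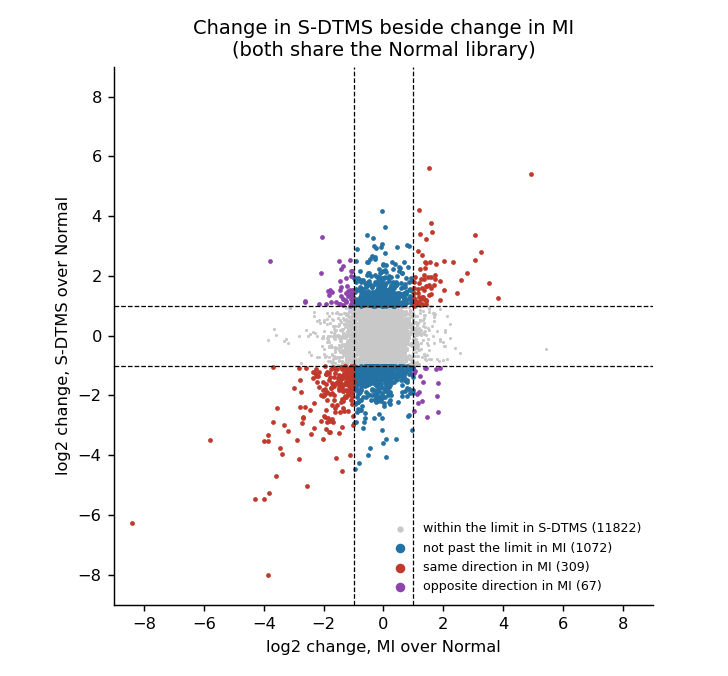
Log2 change of S-DTMS over Normal (vertical axis) against log2 change of MI over Normal (horizontal axis), with 1 point per gene and dashed lines at changes of 1 and -1. The 309 genes past the limit in both libraries in the same direction lie in the lower left and upper right corners, the 67 opposite genes in the other corners, and the 1072 genes in the middle columns. The Normal library enters both axes.

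The genes lower in both S-DTMS and MI were lower, at the median, in each of the 4 infarcted hearts. As deposited, the median FPKM of the 238 genes was 8.65 in Normal, 2.03 in MI, 2.05 in SNAP, 2.29 in DTMS and 1.45 in S-DTMS. Their median log2 change over Normal was -1.41 in MI, -1.44 in SNAP, -1.37 in DTMS and -1.60 in S-DTMS. The SNAP and DTMS values were not used to choose these genes, but they share the Normal library. Between S-DTMS and MI, 142 of the 238 genes differed in size by less than 0.5, 27 were farther from Normal by at least 1 in S-DTMS, and 11 were farther by at least 1 in MI.

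The largest falls of the comparison came from this group. ENSRNOG00000013973 had an FPKM of 1893 in Normal, 129 in MI, 20.6 in SNAP, 79.1 in DTMS and 6.40 in S-DTMS. Normal was the highest and S-DTMS the lowest of the 5 libraries. The fall to S-DTMS was -8.00 on the log2 scale, from 28808 to 97 fragments, and the exact 95% binomial interval put Normal between 242 and 365 times S-DTMS.

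Other genes of the same group, given without identifiers, did not all keep that order. The next in size had an FPKM of 921 in Normal, 1.68 in MI, 7.88 in SNAP, 1.99 in DTMS and 11.1 in S-DTMS, so that it was lowest in MI. Another abundant gene had 2238 in Normal, 185 in MI, 203 in SNAP, 624 in DTMS and 84.7 in S-DTMS. All 4 infarcted libraries lay below Normal at both genes.

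The 71 genes higher in both S-DTMS and MI were fewer and started from lower levels. Their median FPKM was 1.1 in Normal, 5.95 in MI, 3.29 in SNAP, 4.34 in DTMS and 6.12 in S-DTMS. The median log2 change over Normal was 1.39 in MI, 0.72 in SNAP, 1.00 in DTMS and 1.69 in S-DTMS. In this group S-DTMS was farther from Normal than MI at 44 genes, and MI was farther at 27. By at least 1, S-DTMS was farther at 10 genes and MI at 3. Of the 71 genes, 26 had an FPKM of at least 10 in S-DTMS or Normal and passed the limit on both scales. With at least 20 fragments in the 2 libraries, 222 of the 309 genes past the limit in the same direction were left. Of all 1448 differing genes, 1205 were left.

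ENSRNOG00000012471 had the largest rise of this group. Its FPKM was 0.91 in Normal, 4.48 in MI, 17.9 in SNAP, 5.10 in DTMS and 92.9 in S-DTMS. Normal was the lowest of the 5 libraries and the 2 libraries with SNAP were the highest. The rise to S-DTMS was 5.62 on the log2 scale, from 50 to 5101 fragments, or 103 times the Normal FPKM with a counting interval from 77.6 to 138 times. The next gene in size, given without its identifier, was at 10.6 in Normal, 356 in MI, 129 in SNAP, 263 in DTMS and 488 in S-DTMS, and it was above Normal in each infarcted heart.

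The 517 genes higher in S-DTMS that did not pass the limit in MI had medians near Normal in SNAP and DTMS as deposited. In MI they were within the limit by the choice of the class. Their median FPKM was 13.6 in S-DTMS, whereas it was 4.88 in Normal, 4.68 in MI, 4.88 in SNAP and finally 4.48 in DTMS. The median log2 change over Normal was -0.02 in MI, 0.05 in SNAP, 0.00 in DTMS and 1.27 in S-DTMS. All genes together had medians of -0.14, -0.28, -0.22 and 0.05 in this order. After median-of-ratios scaling, where these became -0.01, -0.01, -0.01 and 0.00, the 450 genes of the class had medians of 0.00 in MI, 0.27 in SNAP, 0.05 in DTMS and 1.28 in S-DTMS.

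ENSRNOG00000006314 showed the class in its plainest form. Its FPKM was 1.32 in Normal, 1.26 in MI, 0.37 in SNAP, 0.76 in DTMS and 41.0 in S-DTMS. Only the S-DTMS library stood above the rest, with 1857 fragments against 60 in Normal, or 31.1 times its FPKM with a counting interval from 24.1 to 40.9 times. The log2 change was 4.18.

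SNAP given without the suture did not leave all genes of this class near Normal. The gene second in size had an FPKM of 7.05 in Normal, 7.28 in MI, 245 in SNAP, 4.11 in DTMS and 98.6 in S-DTMS, so that both libraries with SNAP were high. Another had 73.5 in Normal, 100 in MI, 1109 in SNAP, 711 in DTMS and 587 in S-DTMS, and was high in each treated heart. The most abundant gene past the limit had 665 in Normal, 456 in MI, 1479 in SNAP, 1015 in DTMS and 6954 in S-DTMS. It rose by 3.38 on the log2 scale and was, by the mean of S-DTMS and Normal, the 10th most abundant gene of the comparison.

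The 555 genes lower in S-DTMS that did not pass the limit in MI were also lower, at the median, in the other infarcted hearts. Their median FPKM was 6.76 in Normal, 6.22 in MI, 3.76 in SNAP, 4.58 in DTMS and 1.84 in S-DTMS. The median log2 change over Normal was -0.24 in MI, -0.73 in SNAP, -0.50 in DTMS and -1.27 in S-DTMS. After median-of-ratios scaling, the 582 genes of the class had medians of -0.18 in MI, -0.50 in SNAP, -0.33 in DTMS and -1.27 in S-DTMS. At the median, the SNAP and DTMS libraries lay between Normal and S-DTMS on both scales. Both are set against the Normal library by which the genes were chosen, so chance high values of that library also place them there. In the rising class DTMS lay near Normal on both scales, and SNAP did so as deposited but not after median-of-ratios scaling.

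ENSRNOG00000029115 had the largest fall of this class, and it lay close to the limit in MI. Its FPKM was 49.7 in Normal, 25 in MI, 16.0 in SNAP, 1.00 in DTMS and 1.31 in S-DTMS. The 2 hearts with a suture were the lowest. The log2 change was -4.46 in S-DTMS and -0.97 in MI, and the counts fell from 611 fragments in Normal to 16 in S-DTMS. Normal was 38.0 times S-DTMS, with a counting interval from 23.2 to 66.9 times, a wide interval that reflects the 16 fragments.

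Other falls of the class passed the limit in S-DTMS and in no other library. A gene of this kind had an FPKM of 128 in Normal, 136 in MI, 160 in SNAP, 85.9 in DTMS and 6.68 in S-DTMS. Another was at 26.8 in Normal, 26.7 in MI, 27.0 in SNAP, 34.9 in DTMS and 1.32 in S-DTMS. At a higher level, a gene was at 239.5 in S-DTMS against 2125 in Normal, 2049 in MI, 1573 in SNAP, and 1910 with the plain suture, which is a log2 change of -3.14. This gene was among the 50 most abundant genes of the comparison.

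**Figure D3:**
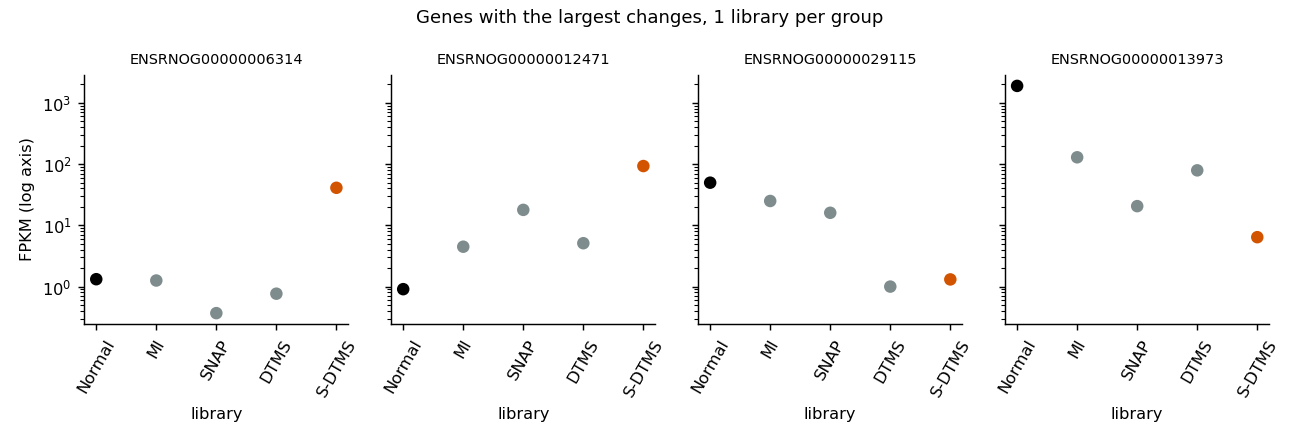
FPKM (log axis) of the 4 genes printed by identifier in the 5 libraries, with 1 point per library, Normal in black and S-DTMS in orange. From left to right they are the largest rise not past the limit in MI, the largest rise shared with MI, the largest fall not past the limit in MI and the largest fall shared with MI.

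The 67 genes that passed the limit in opposite directions lay on both sides of Normal. The 50 genes higher in S-DTMS and lower in MI had a median FPKM of 16.1 in Normal, 4.43 in MI, 14.0 in SNAP, 9.10 in DTMS and 50.5 in S-DTMS. They made up 7.84% of the 638 higher genes, beside 4.92% lower in MI over all 13270 genes. By the choice of the class, S-DTMS was past the uninjured level and not at it. The gene with the largest rise among them had 3.74 in Normal, 0.14 in MI, 2.11 in SNAP, 0.28 in DTMS and 45.3 in S-DTMS. Another had 76.1 in Normal, 29.0 in MI, 69.6 in SNAP, 18.8 in DTMS and 389 in S-DTMS.

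The 17 genes lower in S-DTMS and higher in MI had a median FPKM of 6.26 in Normal, 22.1 in MI, 18.0 in SNAP, 18.7 in DTMS and 1.46 in S-DTMS. They made up 2.10% of the 810 lower genes, near the 1.65% that were higher in MI over all 13270 genes. An abundant gene among them had 937 in Normal, 2072 in MI, 2124 in SNAP, 2175 in DTMS and 197 in S-DTMS. S-DTMS was far below Normal, and the other 3 infarcted libraries were close together above it. After median-of-ratios scaling, the first class held 31 genes and the second 26, so the balance of these small classes depended on the scale.

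**Figure D4:**
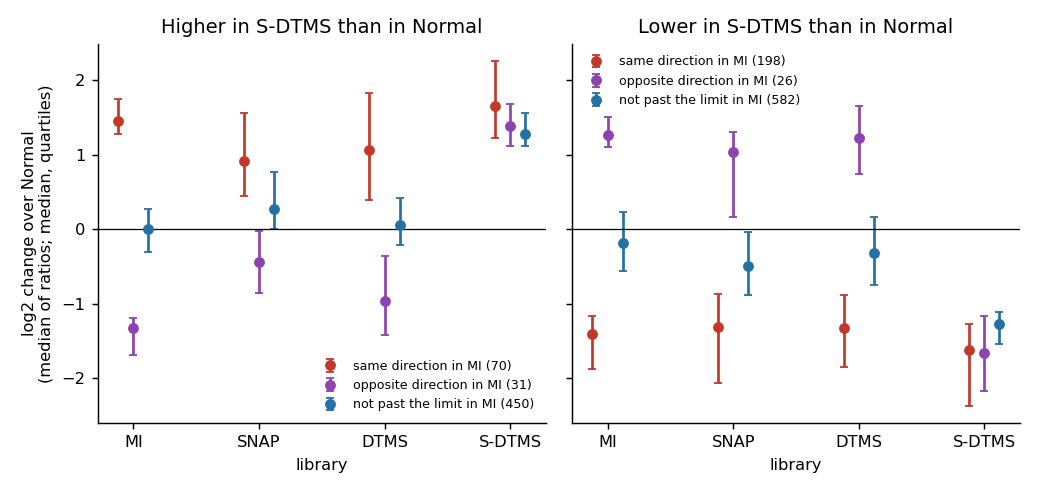
Log2 change over Normal after median-of-ratios scaling (vertical axis) in MI, SNAP, DTMS and S-DTMS (horizontal axis), for genes higher (left) and lower (right) in S-DTMS, with colours by their behaviour in MI. Points are medians over genes and bars are quartiles over genes, not errors over rats. Genes not past the limit in MI (blue) have medians of 0.00, 0.27 and 0.05 in MI, SNAP and DTMS on the left, and of -0.18, -0.50 and -0.33 on the right.

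Seen from the genes that differed in the untreated infarct, S-DTMS stood nearer to Normal at most of them. The 219 genes higher in MI held 71 (32.4%) that were also past the limit in S-DTMS, 131 within it and 17 past it on the other side. Their median log2 change was 1.31 in MI and 0.35 in S-DTMS. Among 653 genes below Normal in MI, 238 (36.4%) were below it in S-DTMS too, 365 were within the limit and 50 were past it on the other side. Their median was -1.30 in MI and -0.53 in S-DTMS. Genes picked for a large change in the MI library are expected to be less extreme in any other library, so these medians alone do not measure a treatment. Of all 13270 genes, 4.81% rose past the limit in S-DTMS and 6.10% fell past it. The same-direction shares of 32.4% and 36.4% lay above these, with Normal common to both comparisons. After median-of-ratios scaling, the same-direction shares were 70 of 274 (25.5%) for genes higher in MI and 198 of 491 (40.3%) for those lower. On that scale, 26 and 31 genes were past the limit on the other side.

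Both ends of the comparison contributed to it in unlike ways. Among the 638 higher genes, S-DTMS was the highest of the 5 libraries at 557, and at 313 (49.1%) it was above each of the other 4 by at least 1. Normal lay below each of the other 4 by at least 1 at 19 genes (2.98%). Among the 810 lower genes, S-DTMS was the lowest at 566, and at 151 (18.6%) it was below each of the other libraries by at least 1. Normal was above each of the other libraries by at least 1 at 150 genes (18.5%). As deposited, rises thus set S-DTMS apart from all other libraries far more often than Normal, whereas falls set either library apart about as often.

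The balance for falls did not hold on the other scale. After median-of-ratios scaling, S-DTMS was at least 1 above each other library at 210 of 551 higher genes (38.1%) and Normal at least 1 below each at 25 (4.54%). For the 806 lower genes the numbers were 211 (26.2%) for S-DTMS and 113 (14.0%) for Normal. All 3 remaining libraries lay between Normal and S-DTMS at 127 of the higher and 280 of the lower genes. Since the genes were chosen for the distance between Normal and S-DTMS, these 2 libraries had to lie at the ends more often than the rest.

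At most of the 9 most abundant genes, S-DTMS moved against the direction seen in the other infarcted hearts. Of the 9 most abundant genes, 7 were lower in S-DTMS than in Normal, at 0.523 to 0.723 times the Normal FPKM, while in MI the same 7 genes were at 1.07 to 1.34 times. None of the 7 passed the limit, and each was lowest in S-DTMS among the 5 libraries. The most abundant gene had an FPKM of 37933 in Normal, 45428 in MI, 52093 in SNAP, 50737 in DTMS and 27440 in S-DTMS. It alone held 5.86% of the fragments of Normal and 4.24% of those of S-DTMS, against 7.02% to 8.05% in the other libraries.

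Of the other two, a gene had 6676 in Normal, 7380 in MI, 7920 in SNAP, 8345 in DTMS and 7515 in S-DTMS, with little difference between libraries. The other was a gene with 13196 in Normal, 23416 in MI, 27877 in SNAP, 24181 in DTMS and 14478 in S-DTMS, which was close to Normal in S-DTMS alone. This lean did not extend beyond the 9 genes. The 10th gene rose by 3.38 on the log2 scale. Among the 50 most abundant genes, 27 were above and 23 below Normal, and 25 and 25 after median-of-ratios scaling. Among the 100 most abundant genes, 8 rose and 8 fell by at least 1 from Normal to S-DTMS, and 54 were above and 46 below Normal in any amount. These 100 genes held 30.6% of the fragments of Normal, 27.4% of those of S-DTMS and 35.5% of those of MI.

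Rises and falls were not of the same make-up. The 638 higher genes had a median FPKM, over the mean of both libraries, of 9.35, near the 9.40 of all 13270 genes, whereas the 810 lower genes had a median of 4.6. Median gene length was 1762 bases for higher genes, 1526.5 for lower genes and 2148 for all genes. The lengths come from the FPKM steps, and a gene with few fragments can be given too short a length. The shares were therefore taken again over genes with at least 100 fragments in the 2 libraries together.

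Among these genes the share of falls went down with length from 500 bases on. It was 6.23% under 500 bases, 7.59% from 500 to under 1000 bases, 5.70% from 1000 to under 2000, 4.77% from 2000 to under 3000 and 2.71% at 6000 or more. The share of rises stayed between 3.39% and 4.14% in all 7 length classes. The median change of all genes moved with length in the same way, from 0.03 under 500 bases and -0.07 at 500 to under 1000 bases to 0.15 at 6000 or more. In MI against Normal the medians of these length classes were -0.15, -0.12 and -0.16, in the same order. A trend of this kind with gene length can accompany differences in RNA integrity, whose part in the result was not tested.

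By level, rises took the larger share among moderately abundant genes. From an FPKM of 20 to under 50, 5.31% of the genes were higher and 3.69% lower, and from 50 to under 100 the shares were 6.91% and 4.73%. From 2 to under 5, the order was turned, with 2.93% higher and 6.76% lower. At 100 or more, 6.33% were higher and 7.75% lower.

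**Figure D5:**
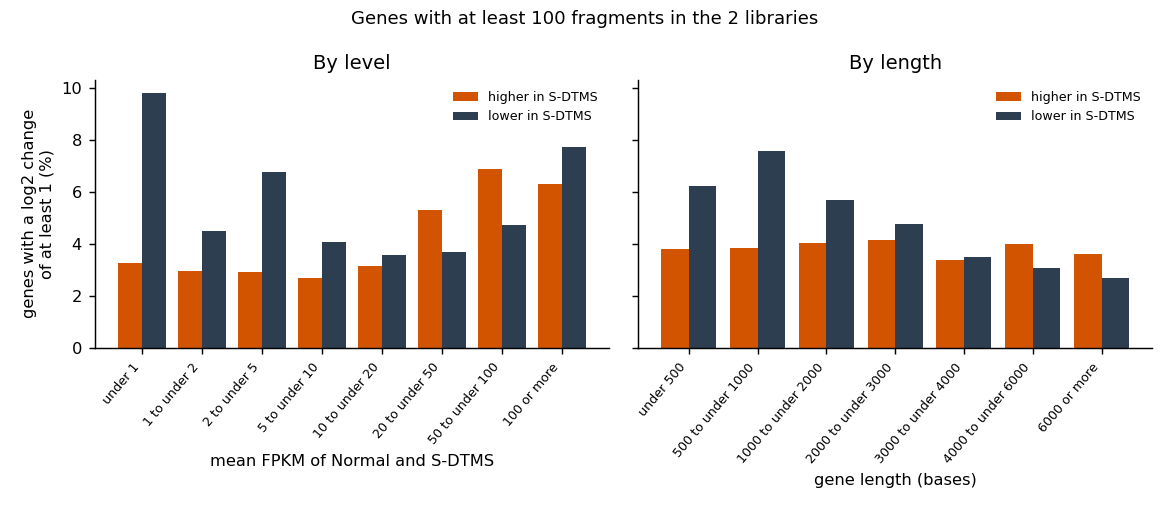
Share of genes (%) higher (orange) and lower (dark) in S-DTMS by a log2 change of at least 1, by mean FPKM (left) and by gene length in bases (right), over genes with at least 100 fragments in the 2 libraries. The share of falls goes from 7.59% to 2.71% between genes of 500 to under 1000 bases and those of 6000 or more, while the share of rises stays between 3.39% and 4.14%. The class under an FPKM of 1 holds 61 genes.

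Few genes were present in 1 of the libraries and absent from the other at a depth that counts. Of the 13270 genes, 76 had no fragment in Normal, and of these 1 had at least 20 fragments in S-DTMS. No fragment in S-DTMS was found for 102 genes, of which 12 had at least 20 fragments in Normal, with up to 529. Each of these 12 genes had fragments in at least 1 of MI, SNAP and DTMS. A count of 0 allows up to 3 fragments, so the 178 genes of both kinds were not detectable at this depth and were not shown to be silent. All 178 passed the limit, which a gene with an FPKM of at least 1 in 1 library and 0 in the other must do.

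Counting error was small for most of the differing genes. The exact 95% binomial interval of the ratio of fragments, corrected for library totals, left out equal levels at 543 of the 638 higher genes (85.1%) and at 720 of the 810 lower genes (88.9%). It lay wholly beyond a fold of 2 at 438 higher and 583 lower genes. Fewer than 20 fragments in both libraries together stood behind 116 of the higher and 127 of the lower genes. The genes were picked for their change in the same fragments, so these shares follow in part from the choice. Intervals were not taken for the genes within the limit. These intervals say how well 2 libraries were measured, and not how 2 groups of rats differ.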

How the data were processed

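Total RNA of rat left ventricular wall was made into libraries with the NEBNext Ultra kit and sequenced on an Illumina NovaSeq instrument, and the authors deposited FPKM values per rat Ensembl gene. The submitters' processing notes name HTSeq and the mouse build mm9, without roles. The aligner and annotation are not given in the sources used here. The study's legend gives replicates, but each group has 1 column, and pooling is not stated.

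Columns were matched to groups by the sample descriptions. Changes are differences of log2(FPKM + 1) where S-DTMS or Normal reached an FPKM of 1, and a change of at least 1 was counted. Size factors came from 13232 genes above 0 in all 5 libraries and with an FPKM of at least 1 in any of them. Whole fragments and lengths were worked out from the FPKM steps: 99.97% of 6239 low genes shared a step in all libraries, and library totals came within 0.0042 of whole numbers. A gene whose fragments share a divisor gets too few. The recovery, and the calling of changes put into 200 genes that were not weakly expressed, were tested on simulated data. The simulation held no variation between rats, so it does not test the reported counts. Python 3.11.15, NumPy 2.4.6, pandas 2.3.3, SciPy 1.17.1 and Matplotlib 3.10.9 were used.

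The genes compared, the limits and the lists were chosen with earlier results of these data known. Genes were to be printed by size within each class, at an FPKM of at least 10 and past the limit on both scales; without names, 2 identifiers that rose and 2 that fell are printed. Genes given without identifiers were chosen after their values were seen.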

Additional observations from a re-analysis of the deposited data

How the results depend on the processing

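Of 63 alternative values for 6 counts, 48 stayed within 1.5 times the reported count. With an FPKM of at least 5, 927 genes differed, 483 were lower, 192 went in the same direction as in MI and 677 were within the limit in MI. At a log2 change of at least 2, 209 genes differed, 78 higher and 131 lower, with 38 in the same direction, 3 in the opposite direction and 168 within the limit in MI, as fewer genes must pass. With a pseudocount of 0.1, which damps low genes less, 530 were in the same and 151 in the opposite direction. With a limit of 0.5 in MI, the split was 539, 215 and 694 genes. No filter changed nothing, because a gene under an FPKM of 1 in both libraries cannot pass the limit. The 4 genes printed by identifier kept their direction and passed the limit under the 3 alternatives tried. The planned gene lists and their alternatives were not run, since no identifier could be paired with a name. No paired analysis was possible because there is only 1 library in a group. Depth limits mainly genes with fewer than 20 fragments.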
